A study of Mus musculus with 14 samples.

Results

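The genes described here encode secreted signals of the BMP, FGF and hedgehog pathways, secreted proteins that hold BMP signals back, and Hhip, which holds hedgehog signals back. They were 33 genes in 5 subgroups: 12 BMP and GDF ligands, 3 secreted BMP antagonists, 4 genes of the activin, nodal and lefty branch, 10 FGF ligands, and the 3 hedgehog ligands with Hhip. A listed region of the repressive histone mark H3K27me3, called a peak below, was assigned to a gene when it overlapped the gene body or the 5 kb on either side of it in GENCODE M21 on the mouse genome build mm10. By this rule 97 of the 23668 listed peaks belonged to the 33 genes, and no peak was shared between any pair of them. The rule assigned peaks by position alone and not by the measured levels. The 33 genes themselves were chosen with earlier results of these data known.

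The mark was assayed by chromatin immunoprecipitation with a Millipore antibody, followed by sequencing (ChIP-seq). The cells were cultured hippocampal neurons of WT genotype, prepared from CD1 embryos at embryonic day 17 from litters of both sexes. All cultures received antisense gapmers in lipid nanoparticles on day 7 in culture, and the study ran such experiments between days 10 and 21. Gapmers are antisense oligomers whose DNA core directs RNase H to the RNA they bind. The control cultures received a negative control gapmer and the knockdown cultures a gapmer against the long noncoding RNA NeuID, so that lipid particles and a gapmer were common to both groups. The labels list 6 control and 6 NeuID knockdown libraries, with 1 input library for each group. Solving the deposited overall mean for the share of the control gave 0.545 at all 93 member peaks where this could be done, the share of 6 control to 5 knockdown libraries, so that the means stand for 11 of the 12 labelled libraries. The absent knockdown library could not be named from these values.

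Each level below is the authors' mean of normalized reads per library for one group, deposited on a log2 scale. Single libraries were not analysed here. No level therefore carries a replicate error, and whether a difference exceeds the spread between cultures was not tested at any peak. The number of mapped reads per library is likewise unknown here. A difference is given as knockdown minus control on the log2 scale, and a peak is called lower or higher when its difference is at least 2-fold with both groups above 0. Some group means are listed at 0, the lowest value of the table; these peaks are counted apart, given no fold, and enter sums as 1 read. The libraries were made from whole cultures, so a smaller share of cells carrying the mark and less of it per cell cannot be told apart.

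BMP and GDF proteins are ligands of the TGF-beta superfamily that bind paired serine/threonine kinase receptors and act through Smad proteins. FGFs act through receptor tyrosine kinases, and hedgehog proteins relieve the inhibition of Smoothened by Patched and so set the activity of the Gli transcription factors. In the embryonic neural tube Shh from the floor plate and BMPs from the roof plate pattern the ventral and the dorsal side, and Fgf8 marks signalling centres of the brain. Genes of this kind are known targets of Polycomb repressive complex 2, which methylates lysine 27 of histone H3, often over CpG-rich DNA around promoters that are silent in a given cell type.

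The sequences below show the DNA under the peaks that the results turn on. The first 5 are the 200 bases with the most CG dinucleotides, annotated UTRs left out, in the strongest peak of the strongest gene of each subgroup. The last 2 come from the member peaks with the lowest and the highest difference among those with an overall mean of at least 4 on the log2 scale. All are read from the RefSeq GRCm38.p6 assembly, which mm10 names, on the plus strand from 5′ to 3′, and capitals mark the CG dinucleotides. They lie at chr12:8298530-8298729 (Gdf7, part coding exon and part intron, 34 CG), chr2:113757565-113757764 (Grem1, intron, 18 CG), chr10:61418353-61418552 (Nodal, part coding exon and part intron, 23 CG), chr19:45742966-45743165 (Fgf8, upstream of the gene body, 29 CG), chr5:28458148-28458347 (Shh, coding exon, 36 CG), chr5:28472187-28472386 (Shh, upstream of the gene body, 3 CG) and chr14:46386104-46386303 (Bmp4, intron, 8 CG).
Gdf7 strongest peak: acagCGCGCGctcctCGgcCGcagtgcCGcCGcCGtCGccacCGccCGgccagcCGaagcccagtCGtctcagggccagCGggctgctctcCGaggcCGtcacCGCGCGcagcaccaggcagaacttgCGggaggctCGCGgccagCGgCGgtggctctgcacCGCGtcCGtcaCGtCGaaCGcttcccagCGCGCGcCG
Grem1 strongest peak: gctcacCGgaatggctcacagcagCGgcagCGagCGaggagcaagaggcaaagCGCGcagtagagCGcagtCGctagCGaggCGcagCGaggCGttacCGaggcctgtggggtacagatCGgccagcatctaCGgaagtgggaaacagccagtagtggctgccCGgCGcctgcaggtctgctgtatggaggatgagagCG
Nodal strongest peak: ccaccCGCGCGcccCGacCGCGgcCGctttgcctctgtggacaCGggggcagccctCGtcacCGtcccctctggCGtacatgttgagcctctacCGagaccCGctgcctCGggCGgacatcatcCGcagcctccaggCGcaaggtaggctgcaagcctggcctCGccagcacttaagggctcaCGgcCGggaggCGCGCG
Fgf8 strongest peak: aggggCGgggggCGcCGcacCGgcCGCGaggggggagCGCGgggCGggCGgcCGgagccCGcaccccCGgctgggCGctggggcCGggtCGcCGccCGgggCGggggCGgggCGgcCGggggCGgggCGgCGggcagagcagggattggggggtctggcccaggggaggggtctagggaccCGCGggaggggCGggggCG
Shh strongest peak: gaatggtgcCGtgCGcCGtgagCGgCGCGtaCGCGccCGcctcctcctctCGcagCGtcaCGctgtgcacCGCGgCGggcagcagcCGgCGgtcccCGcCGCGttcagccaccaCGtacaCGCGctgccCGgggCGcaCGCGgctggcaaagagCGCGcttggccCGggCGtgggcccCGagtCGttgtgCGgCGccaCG
Shh upstream peak with the lowest difference: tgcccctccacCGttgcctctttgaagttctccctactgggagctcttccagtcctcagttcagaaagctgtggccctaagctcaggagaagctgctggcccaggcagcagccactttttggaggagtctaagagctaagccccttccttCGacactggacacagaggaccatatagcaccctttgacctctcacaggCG
Bmp4 promoter peak with the highest difference, intronic window: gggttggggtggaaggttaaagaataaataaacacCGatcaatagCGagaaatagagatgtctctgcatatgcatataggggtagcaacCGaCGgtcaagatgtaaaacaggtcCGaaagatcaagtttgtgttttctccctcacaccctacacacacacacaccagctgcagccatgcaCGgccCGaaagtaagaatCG

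H3K27me3 was listed at most of these genes. Of the 33 genes, 29 (87.9%) had at least 1 peak, against 6154 of the 21951 protein-coding genes of the annotation (28.0%). Among 41 further ligands and antagonists of these pathways outside the 33 genes, 19 had a peak. Because the 33 genes were chosen with earlier results known, this contrast describes the chosen list. The 4 genes without a listed peak were Bmp5 and Gdf5, both ligands of the BMP branch, Nog, which encodes the BMP antagonist noggin, and Inhbb, which encodes an activin subunit. At least 4 peaks were listed at 10 of the 33 genes (30.3%) and at 4.71% of protein-coding genes. Gdf6 and Shh had the most, with 10 peaks each, whereas 7 genes had 1 peak.

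Peaks of these genes were wider and held more reads per peak than the listed peaks as a whole. Their median width was 696 bp against 426 bp, and 28 of 97 (28.9%) reached 1 kb against 9.72% of all peaks. Their median level, as the mean of both groups, was 3.71 on the log2 scale against 2.93. The 8 peaks of at least 2 kb lay over Gdf7 (2 peaks), Ihh (2 peaks), Fgf3, Fgf4, Fgf8 and Dhh and made up 8.25% of the member peaks against 2.93% of all peaks. Width and level ran closely together among the 97 peaks (Spearman's rho 0.941), and both derive from the same reads. Neither trait was particular to these genes. Control means per peak were 22.2 reads here, 22.6 at the Wnt ligand genes and 80.4 at the Hox genes, both described below, and 12.6 over all peaks. The 97 member peaks covered 90312 bp, the 81 Wnt peaks 75373 bp and the 161 Hox peaks 403716 bp.

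The DNA under the peaks was also richer in CpG. The observed to expected CpG ratio, which corrects the number of CG dinucleotides for base composition, had a median of 0.443 in the member peaks and 0.218 in all peaks, and the median GC content was 55.6% against 49.2%. A ratio of at least 0.6 was found in 21 of 97 member peaks (21.6%) and in 8.56% of all peaks. Peaks within 1 kb of a protein-coding transcript start made up 44.3% of the member peaks and 15.8% of all peaks. The median ratio was 0.564 in the 36 member peaks within 1 kb of a start of their gene and 0.254 in the other 61. How much of the contrast goes with place was not tested. Across the 97 peaks the level went with this ratio (rho 0.507, against 0.324 over 23642 peaks on assembled chromosomes), while the difference between the groups had a rho of -0.10 with it. The peaks of a gene share libraries and neighbouring DNA, so these correlations describe the list and carry no test. The printed sequences show the contrast within 1 gene: the window in the coding exon of Shh held 36 CG dinucleotides and the window upstream of Shh held 3.

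**Figure D1:**
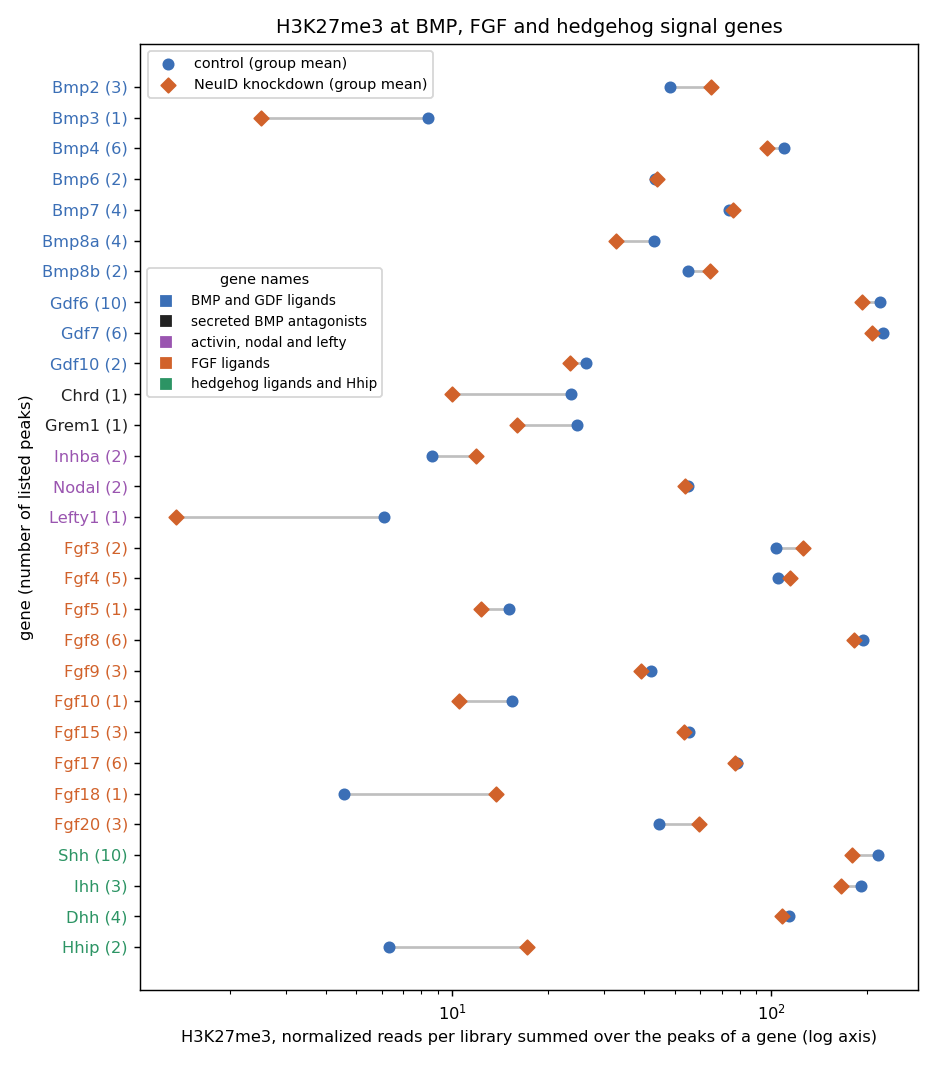
H3K27me3 at each of the 29 genes with a listed peak, as normalized reads per library summed over the peaks of the gene (horizontal log axis; number of peaks in brackets), for the control mean (circles) and the NeuID knockdown mean (diamonds). The pairs of points lie close together at the strongest genes, such as Gdf7 and Fgf8, and far apart at Bmp3, Lefty1, Fgf18 and Hhip, whose summed levels run from 1.36 to 17.1 reads. Chrd, with 23.5 control and 9.98 knockdown reads, also differs by more than 2-fold.

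To determine how H3K27me3 at these genes differed after NeuID knockdown, both group means were compared at each peak. Lower and higher peaks were found at these genes in similar numbers. Of the 97 peaks, 18 (18.6%) were at least 2-fold lower in the knockdown, against 17.3% of all listed peaks, and 15 (15.5%) were at least 2-fold higher, against 17.1%. None was listed at 0 in the knockdown, where 3.35% of all peaks were, and 3 were listed at 0 in the control, where 3.28% of all peaks were. These shares lay near those of the whole list. The median difference was 0.07, against -0.02 over all peaks, with 43 peaks below 0 and 54 above. Summed over the 97 peaks, the control means came to 2156 reads and the knockdown means to 2058 reads, or 95.4% of the control, against 97.1% over all peaks. The normalization is not given in the sources used here and may itself set such ratios.

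How far a peak differed went with its level. The absolute difference and the level had a rho of -0.53 among the member peaks and -0.27 among all peaks. Below a mean level of 3 on the log2 scale, 3 of 22 member peaks were lower and 7 were higher, against 19.3% and 19.8% of all peaks at that level, and the 3 peaks listed at 0 in the control also lay there. Between 3 and 4, 9 of 35 were lower and 8 higher, against 17.9% and 17.6%. Between 4 and 5, 6 of 22 were lower and 0 higher, against 12.0% and 8.98%. At a level of 5 and above, 0 of 18 were lower and 0 higher, against 2.66% and 1.48%, and the differences ran from -0.69 to 0.54. The strongest H3K27me3 regions of these genes thus stayed within 2-fold of the control mean. The 6 lower peaks at a level of 4 to 5 lay at Bmp4, Gdf6, Gdf7, Chrd, Fgf8 and Shh, with differences of -1.32, -1.28, -1.85, -1.24, -1.53 and -1.07.

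**Figure D2:**
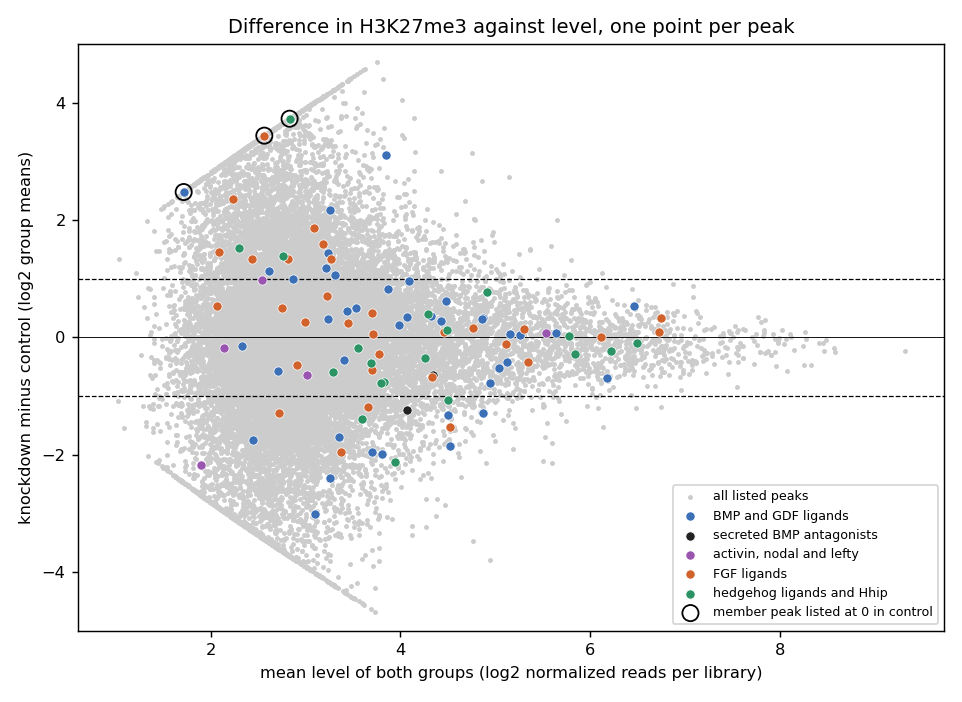
Knockdown minus control difference (vertical axis, log2 group means) against the mean level of both groups (horizontal axis, log2 normalized reads per library), 1 point per peak; grey points are all listed peaks, coloured points the 97 member peaks by subgroup, rings the 3 peaks listed at 0 in the control, and dashed lines mark 2-fold. Differences narrow to the right, and all 18 member peaks at a level of 5 and above lie between the dashed lines.

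Among the BMP and GDF ligands, 10 of 12 genes had 40 peaks, of which 9 were lower, 6 higher and 1 listed at 0 in the control. For this and each further subgroup, the shares over all listed peaks were 17.3% lower, 17.1% higher and 3.28% listed at 0 in the control. Their control means summed to 851.5 reads and their knockdown means to 805.1 reads, a log2 ratio of -0.08. The median over the 40 peaks was 0.24, on the other side of 0 from the summed ratio. The largest sums were those of Gdf7 and Gdf6, and per kb of covered DNA Gdf7 had 28.0 reads in the control and 25.9 in the knockdown, against 24.0 and 21.03 for Gdf6.

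Gdf7, a signal of the roof plate, had its strongest peak of 2801 bp over the end of the gene, where the control mean was 71.6 reads and the knockdown mean 104 reads, a difference of 0.54. Next to it, a peak of 2693 bp over the gene start had 89.2 and 55.5 reads, a difference of -0.69. The adjoining wide peaks of this gene therefore differed in opposite directions. Upstream of the start, a Gdf7 peak had 36.0 control and 9.97 knockdown reads, a difference of -1.85, and downstream of the gene a narrow peak of 292 bp had 5.11 and 13.8 reads, a difference of 1.43.

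Gdf6, a relative of Gdf7 with roles in joint and eye development, showed the same mixture along its 10 peaks. Its strongest promoter peak had 35.0 control and 36.3 knockdown reads, a difference of 0.06, and just upstream a peak of 411 bp had 15.2 and 1.89 reads, the lowest difference of all member peaks at -3.01. In the intron, a peak of 1842 bp had 41.6 and 17.1 reads, a difference of -1.28. A further 3 narrow intron peaks were higher instead, with 3.48 and 15.6 reads (2.16), 3.83 and 8.44 reads (1.14), and 5.66 and 12.9 reads (1.19).

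Bmp4, a dorsalizing ligand of the neural tube, had 6 peaks. Its strongest covered 1954 bp inside the gene and had 25.8 control and 32.2 knockdown reads, a difference of 0.32. The 2 peaks nearest to the gene start were lower: 32.4 and 12.9 reads at the first (-1.32), and 22.3 and 5.61 reads at the second (-1.99), which covers the start. The Bmp4 peak whose intronic window is printed above, a promoter peak that also overlaps exons, had 11.5 and 22.5 reads, a difference of 0.97 that stayed within 2-fold.

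Bmp7, a ligand of bone, kidney and nervous system development, had its strongest peak of 1672 bp over the gene start, with 39.8 control and 29.9 knockdown reads (-0.41). Immediately upstream, a peak of 949 bp had 3.01 and 25.9 reads, a difference of 3.10, the highest among member peaks with both groups above 0. An intron peak of Bmp7 had 16.1 and 3.05 reads (-2.40). Neighbouring regions of this gene thus included both a lower and a higher peak.

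The related genes Bmp8a and Bmp8b, whose products belong to the BMP7 branch of the family, lie near each other on chromosome 4. At Bmp8a 2 adjoining peaks each covered a transcript start, the strongest with 20.6 control and 5.31 knockdown reads (-1.96) and the other with 12.0 and 9.19 reads (-0.39). A peak of 263 bp in an intron of Bmp8a was listed at 0 in the control and had 5.57 reads in the knockdown. At Bmp8b the strongest peak, also over the start, had 48.6 and 51.1 reads (0.07), and an intron peak had 6.40 and 13.4 reads (1.07).

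Bmp2, an osteogenic ligand close to Bmp4, had 3 peaks, all higher by less than 2-fold, the strongest with 25.9 control and 32.7 knockdown reads (0.33). Bmp6, known as a regulator of iron balance, had a strongest peak of 37.9 and 39.0 reads (0.04) over its start. Gdf10, a ligand related to Bmp3, had its strongest peak at the start with 10.6 and 18.6 reads (0.82), and the adjacent promoter peak had 15.6 and 4.80 reads (-1.70). Bmp3, a ligand that opposes osteogenic BMPs, had 1 intron peak of 442 bp with 8.42 and 2.51 reads (-1.75).

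Each of the secreted BMP antagonists with a peak had 1, and both were below the control. Chrd encodes chordin, which binds BMPs outside the cell; its peak had 23.5 control and 9.98 knockdown reads (-1.24), and it lies nearest to the start of the neighbouring gene Thpo. Grem1 encodes gremlin 1; its promoter peak had 24.7 and 15.9 reads (-0.63), and per kb it had 36.9 control and 23.8 knockdown reads. The summed log2 ratio of -0.90 was the lowest of the 5 subgroups and rests on these 2 peaks.

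The activin, nodal and lefty branch had 5 peaks at 3 genes, 1 of them lower and 0 higher, with sums of 69.7 control and 67.0 knockdown reads (-0.06). Nodal, the ligand that sets the body axes of the embryo, held most of this signal in a peak of 1955 bp over its start, with 45.1 and 47.4 reads (0.07). Lefty1, a nodal antagonist, had 1 promoter peak of 224 bp with 6.10 and 1.36 reads (-2.17). Inhba, an activin subunit that neurons are known to induce with activity, had a strongest peak of 3.92 and 7.71 reads (0.98) in a coding exon.

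All 10 FGF ligand genes had a peak, 31 in total, of which 4 were lower, 7 higher and 1 listed at 0 in the control. Their sums were 658.3 reads in the control and 688.2 in the knockdown, a log2 ratio of 0.06, the only subgroup whose summed ratio was above 0. That sign was opposite, at -0.02, when only peaks of at least 1 kb were kept. The 7 higher peaks lay in introns or flanks, with control means of 1.55 to 5.47 reads.

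The strongest peaks of the FGF genes with the largest sums had close group means. Fgf8, the signal of the midbrain-hindbrain organizer and the anterior forebrain, had a peak of 3249 bp over its start with 103 control and 109 knockdown reads (0.09). An intron peak of Fgf8 had 34.2 and 11.8 reads (-1.53). Downstream of the gene, adjacent peaks lay on opposite sides, with 16.5 and 4.28 reads (-1.95) at one and 3.68 and 13.4 reads (1.86) at the other.

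Fgf3, Fgf4 and Fgf15 lie side by side on chromosome 7. Fgf3, a signal of inner ear induction, had its strongest peak, of 2784 bp, with 95.2 control and 120 knockdown reads (0.33). Fgf4, an early embryonic ligand, had 69.1 and 69.4 reads (0.01) at its strongest, and a narrow intron peak with 2.27 and 6.21 reads (1.45). Fgf15, the mouse counterpart of human FGF19, had 46.4 and 34.5 reads (-0.43) over its start, and an intron peak with 5.47 and 13.9 reads (1.34).

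Fgf17, a close relative of Fgf8, had 35.8 control and 33.2 knockdown reads (-0.11) at its strongest peak, over the start. Upstream of it, a peak of 330 bp was listed at 0 in the control and had 10.8 reads in the knockdown, and another had 1.55 and 7.89 reads (2.35). Downstream, 2 peaks that lie nearest to the start of Dmtn had 9.35 and 3.85 reads (-1.28) and 17.6 and 7.70 reads (-1.19). The 1 higher peak of this gene thus lay upstream and its 2 lower peaks downstream.

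Fgf20, a ligand known for effects on dopaminergic neurons, had a strongest peak of 37.5 control and 41.5 knockdown reads (0.15), with 2 narrow intron peaks of 3.07 and 7.78 reads (1.34) and of 4.00 and 10.1 reads (1.34). Fgf18, a ligand of skeletal growth, had 1 intron peak with 4.56 and 13.7 reads (1.584). The other FGF genes had no peak past 2-fold. Fgf9, a ligand of gonad and lung development, had 24.8 and 15.6 reads (-0.67) at its strongest peak, Fgf10, the inducer of limb and lung buds, 15.4 and 10.5 reads (-0.55), and Fgf5, a regulator of hair growth, 15.01 and 12.3 reads (-0.29).

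At the hedgehog genes, 19 peaks were listed, of which 3 were lower, 2 higher and 1 listed at 0 in the control. Their sums were 528.1 control and 471.3 knockdown reads, a log2 ratio of -0.16. The 3 lower peaks all belonged to Shh and the 2 higher ones were both peaks of Hhip. The hedgehog ligands bind Patched, whereas Hhip is a membrane-anchored protein that binds and sequesters them.

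Shh, the ventralizing signal of the neural tube, had a strongest peak of 1578 bp over a coding exon, the one whose CG-rich window is printed above, with 54.6 control and 55.4 knockdown reads (0.02). In its introns, a peak of 981 bp had 30.6 and 14.5 reads (-1.07), and the next one, of 493 bp, was listed at 0 in the control and had 13.2 reads in the knockdown. Upstream of Shh, a peak had 17.4 and 6.67 reads (-1.39), and the farther one, whose CG-poor window is printed above, had 25.04 and 5.72 reads (-2.13). Over the gene start the control mean was 22.2 reads and the knockdown mean 37.9 reads (0.77), so the differences at the start and upstream of it had opposite signs.

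Ihh, the hedgehog ligand of growing cartilage, had 3 peaks that were each below the control by less than 2-fold, with 93.3 and 87.4 reads (-0.09) at the strongest, of 2871 bp, over its start. Dhh, the ligand of Schwann and Sertoli cells, had 62.8 and 51.9 reads (-0.28) over its start, and none of its 4 peaks passed 2-fold. Hhip had 2 narrow intron peaks, with 3.76 and 9.78 reads (1.38) and 2.56 and 7.31 reads (1.52).

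**Figure D3:**
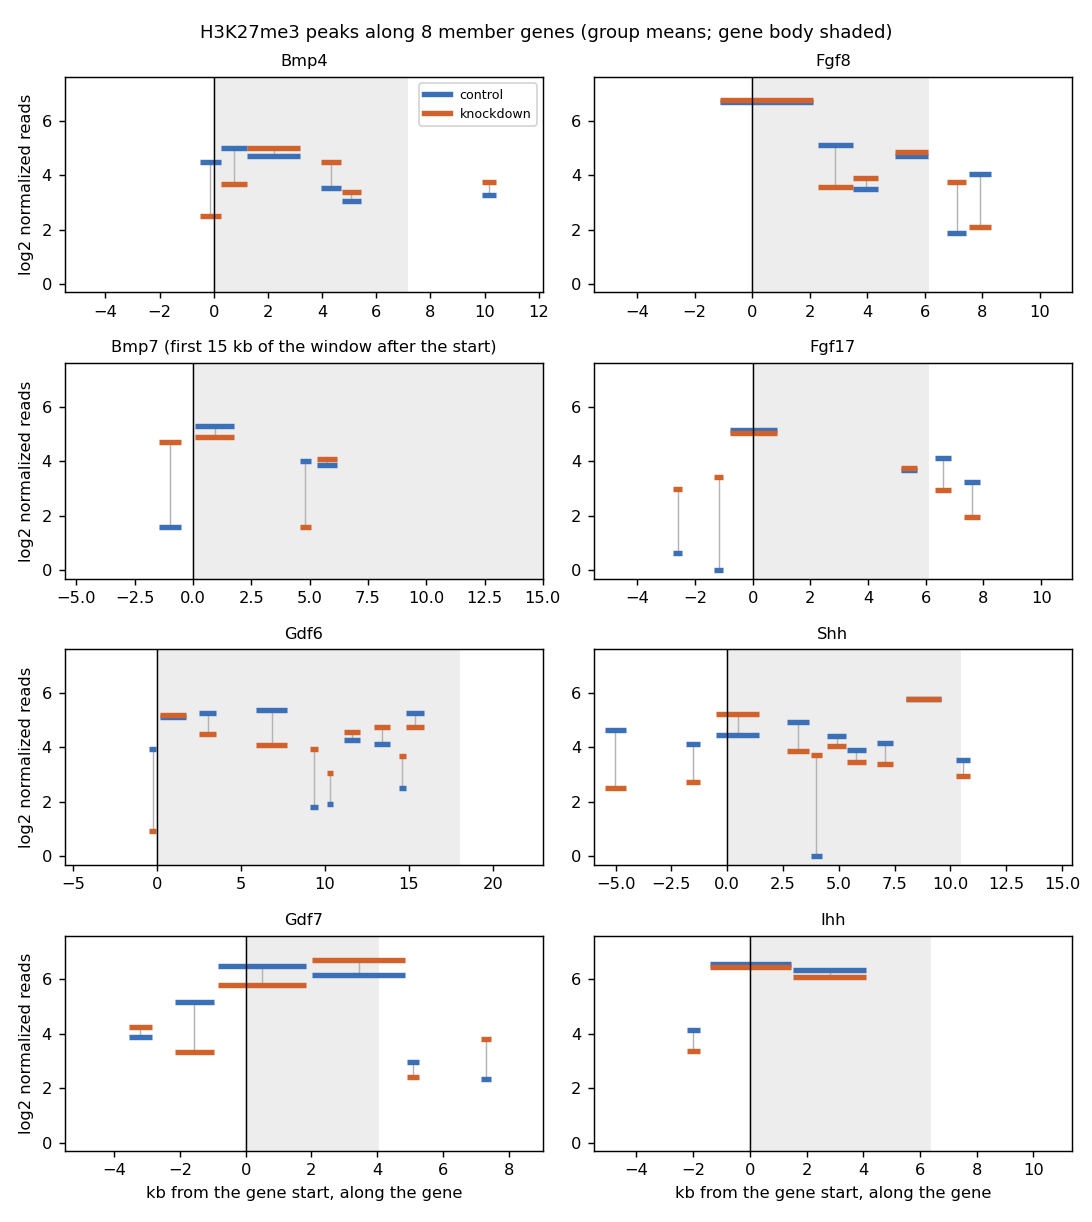
Control (blue) and NeuID knockdown (orange) group means in log2 normalized reads (vertical axis) for the peaks of 8 genes, each drawn over its extent in kb from the gene start along the direction of the gene (horizontal axis), with the gene body shaded. At Bmp7, Gdf6, Gdf7, Fgf8 and Fgf17 a peak at least 2-fold lower and a peak at least 2-fold higher belong to the same gene. Bmp4 and Shh also have peaks on both sides of the control level, while both wide peaks of Ihh stay close to the control.

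Summed over all peaks of a gene, most differences were small. Of the 29 genes, 3 were at least 2-fold lower and 2 at least 2-fold higher, against 12.3% and 15.7% of the 5865 protein-coding genes compared. Genes whose peaks are all listed at 0 in a group were left out of that background. The 3 lower genes were Bmp3, Chrd and Lefty1, with log2 ratios of -1.75, -1.24 and -2.17, and each has 1 peak. The 2 higher genes were Fgf18 (1.584, 1 peak) and Hhip (1.44, 2 peaks). In all, 19 sums were below the control and 10 above it, and the median ratio was -0.09 against 0.02 over the protein-coding genes, whose quartiles were -0.46 and 0.60.

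The 10 genes with at least 4 peaks had summed ratios from -0.39 (Bmp8a) to 0.12 (Fgf4). None was 2-fold lower or higher, against 1.65% and 1.74% of the 1033 protein-coding genes with as many peaks. Within these genes the peaks differed far more than the sums: 5 of 10 (Bmp7, Gdf6, Gdf7, Fgf8 and Fgf17) held both a lower and a higher peak, against 37.2% of the 1033 genes. The span from the lowest to the highest difference within a gene had a median of 3.12 log2 units, against 2.64 over those genes, and ran from 0.68 at Dhh to 5.50 at Bmp7, with peaks listed at 0 left out of each gene, a choice made after seeing the data. If such peaks enter at the lowest listed value, the medians are 4.12 and 3.03, and the spans widen from 2.90 to 5.86 at Shh, from 3.63 to 4.72 at Fgf17 and from 2.41 to 4.43 at Bmp8a.

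**Figure D4:**
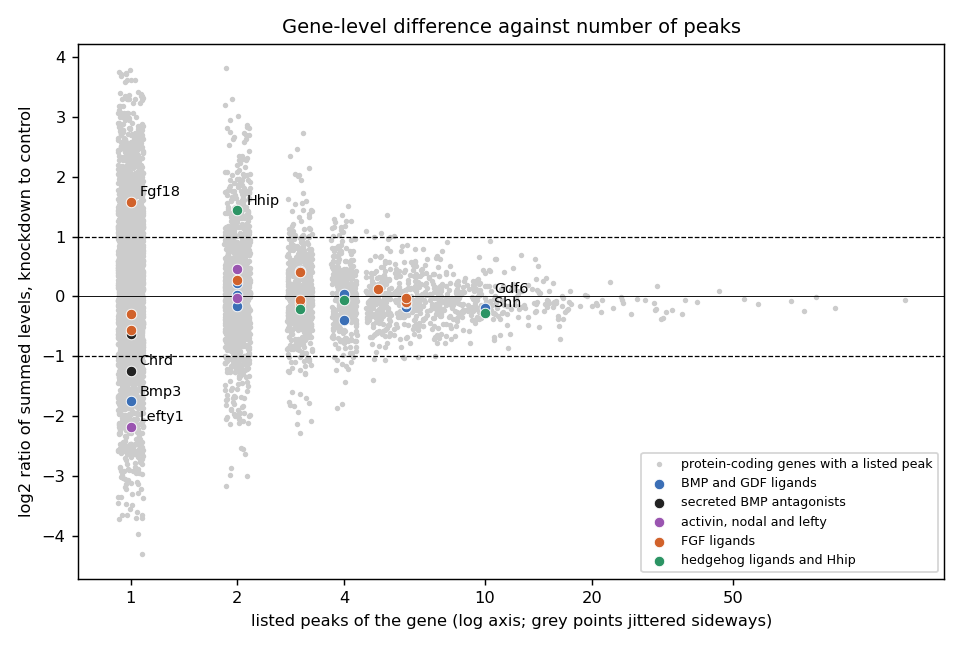
Log2 ratio of summed H3K27me3, knockdown to control (vertical axis), against the number of listed peaks of a gene (horizontal log axis); grey points are the protein-coding genes compared, coloured points the 29 genes by subgroup, and dashed lines mark 2-fold. The 5 genes past 2-fold have 1 or 2 peaks, and all 10 genes with at least 4 peaks lie between -0.39 and 0.12.

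Peaks were next counted by their place in the gene. Within 1 kb of a transcript start of its gene lay 36 peaks of 24 genes, of which 8 were lower and 1 was higher. Over all peaks within 1 kb of a protein-coding transcript start, 13.2% were lower and 13.9% higher. The lower promoter peaks were those of Bmp4 (2), Bmp8a, Gdf6, Gdf7, Gdf10, Chrd and Lefty1, and the higher one was that of Bmp7, so that 6 of the 8 lower ones belong to the BMP and GDF ligands, which hold 18 of the 36 promoter peaks. None of the 10 FGF and 3 hedgehog promoter peaks passed 2-fold, and whether the subgroups differ was not tested. Of 30 intron peaks, 5 were lower and 11 higher, against 18.8% and 18.3% of the intron peaks of all protein-coding genes under the same rule, and 2 were listed at 0 in the control, against 3.81%. Of 16 peaks over other exons, 0 were lower and 0 higher, against 14.7% and 16.0%. Of 15 flank peaks, 5 were lower and 3 higher, against 14.9% and 15.3%. The intron, exon and flank backgrounds count a peak under every gene it belongs to. The promoter background counts each peak once and takes the start of any protein-coding gene. By that wider rule 43 member peaks lay at a promoter. The 7 peaks it adds lay at Bmp4, Bmp8a, Fgf17 and Dhh, and only a lower peak of Fgf17 (-1.19) among them passed 2-fold. The promoter peaks were also the stronger ones, with a mean of 33.6 control and 30.8 knockdown reads per peak against 12.6 and 12.7 for intron peaks, and the part of level in these counts was not tested.

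At the starts themselves, 20 peaks covered a transcript start of 19 genes. For 10 of the 97 peaks the nearest protein-coding start was that of another gene: Oxct2a beside Bmp8a, Thpo beside Chrd, Dmtn beside Fgf17, Rhebl1 beside Dhh and Gm15217 beside Bmp4. These peaks include 3 of the 18 lower ones.

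Other genes of the same pathways had lower and higher peaks in similar numbers. Over all listed peaks, 17.3% were lower and 17.1% higher, and 3.35% were listed at 0 in the knockdown and 3.28% in the control. Of 41 further ligands and antagonists, 19 had 35 peaks, with 3 lower, 4 higher and 1 listed at 0 in the knockdown. Among them Tgfb1, a cytokine of the immune system and of fibrosis, had sums of 128 control and 94.2 knockdown reads (-0.44), Sost, a Wnt and BMP antagonist of bone, 76.1 and 67.0 reads (-0.18), and Chrdl2, a chordin relative, 51.3 and 55.3 reads (0.11). Of 26 receptors and co-receptors, 12 had 110 peaks, with 19 lower, 22 higher, 4 listed at 0 in the knockdown and 2 in the control. Of these, 85 peaks belonged to the FGF receptor gene Fgfr2, whose sums were 1412 and 1411 reads, with 15 peaks lower and 19 higher. Tgfbr3, a co-receptor of TGF-beta ligands, had 115 and 99.6 reads (-0.21), and Kl, the FGF23 co-receptor klotho, 55.8 and 75.6 reads (0.44).

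Of 28 intracellular and target genes found in the annotation, 17 had 33 peaks, with 5 lower, 7 higher and 2 listed at 0 in the knockdown. Gli1, a transcription factor and target of hedgehog signalling, had 169 control and 152 knockdown reads (-0.15) in 4 peaks. Smad6, an inhibitory Smad that BMPs induce, had 32.6 and 48.3 reads (0.57), and Scube2, which helps release hedgehog ligands, 29.8 and 40.8 reads (0.45). None of these named genes, chosen for the largest sums of their classes, passed 2-fold in its sum. Others of the intracellular and target class did. Spry4 (-2.29), Smad7 (-1.73) and Etv4 (-1.08) were lower, and Smad9 (1.80), Gli2 (1.76) and Spry1 (1.26) higher. The only Etv5 peak, with 8.35 control reads, was listed at 0 in the knockdown.

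The Wnt ligands, another family of secreted developmental signals, gave a different count. At 17 of 19 Wnt genes 81 peaks were listed, of which 21 were lower and 5 higher, with a median difference of -0.42 and a summed ratio of -0.18. In the whole list, 17.3% of peaks were lower and 17.1% higher, with a median difference of -0.02 and a summed ratio of -0.04. At the member genes the counts were 18 lower and 15 higher of 97, with a median of 0.07 and a summed ratio of -0.07. The summed ratios of both families thus lay closer together than their counts of peaks. Whether the families differ was not tested, as the groups are known by their means alone. The Hox genes, long-known Polycomb targets, all had peaks, and of their 161 peaks 13 were lower and 8 higher, with a summed ratio of -0.16.

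The labelled cell type was checked against the mark at genes of neurons and other brain cells. Neuron genes had been expected to show few peaks if active. Of 8 neuron genes, 5 had a listed peak, against 28.0% of protein-coding genes. They had 29 peaks in all, 13 of them at Rbfox3, 13 at Slc17a7 and 1 each at Map2, Syt1 and Tubb3. Snap25, Camk2a and Neurod6 had none listed. Many peaks were thus seen at Rbfox3 and Slc17a7, and few or none at the other neuron genes. Of other cell types, 1 of 4 astrocyte, 4 of 5 oligodendrocyte and 1 of 4 microglia genes had a peak. A repressive mark in a culture cannot show which cells were present, and RNA levels were not analysed here.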

How the data were processed

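The authors mapped single-end reads of 50 bases to mm10 with Bowtie2, called peaks with MACS2 (broad option, q-value limit 0.1) and compared the groups with DiffBind and its DESeq2 option. The deposited table gives, for each of 23668 peaks, the mean normalized reads of all libraries and of either group as log2 values, and the authors' own fold, p-value and FDR, which were not used here. The normalization, the merging of peaks between libraries, the removal of duplicates and the use of the input are not given in the sources used here. Input subtraction can set low peaks to the lowest listed value.

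Groups were taken from the sample titles. Peaks were assigned by overlap with gene bodies of GENCODE M21 extended by 5 kb, and promoter peaks lay within 1 kb of a transcript start of the gene. Differences were taken on the log2 scale, sums on the linear scale, and CpG content from the RefSeq GRCm38.p6 sequence for 23642 peaks on 21 chromosomes. No test between libraries was possible from group means, and differences were not compared with a replicate error. Labels do not say whether libraries came from separate cultures. The member genes, gene lists and limits were chosen with earlier results of these data known. Values are given for the strongest peak of each gene, each peak past 2-fold, each peak listed at 0, and the 3 pathway genes with the largest sums per class. Other windows, limits, filters and centring were tried as alternatives. Scripts were tested on simulated data. Python 3.11.15, numpy 2.4.6, pandas 2.3.3, pysam 0.24.0 and matplotlib 3.10.9 were used.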

Additional observations from a re-analysis of the deposited data

How the results depend on the processing

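Values are group means without replicate error, so the alternatives show how choices of peaks and limits move them. The settings keep different numbers of peaks. The 18 lower peaks of 97 became 10 of 77 within gene bodies alone and 8 of 36 at promoters alone. They became 10 of 97 at a 3-fold limit and 3 of 28 among peaks of at least 1 kb. The 15 higher peaks of 97 became 1 of 36 at promoters alone and 4 of 97 at the 3-fold limit. They became 8 of 75 at an overall mean of at least 3 and 0 of 28 at 1 kb or more. Peaks listed at 0 in the control went from 3 to 0 at promoters alone and at 1 kb or more, and 1 was listed at 0 in the knockdown with 10 kb flanks. The median difference of 0.07 became -0.10 at promoters alone and -0.039 with each gene counted once. The ratio of BMP and GDF ligands (-0.08) became -0.28 at promoters alone, -0.21 at 1 kb or more and 0.24 as a median over peaks. For BMP antagonists (-0.90) it became -0.49 with 10 kb flanks and -0.63 with peaks nearest to a member start. For activin, nodal and lefty (-0.06) it became 0.14 in gene bodies, 0.073 at 1 kb or more and -0.18 as a median. For hedgehog genes (-0.16) it became -0.061 in gene bodies, -0.0094 at promoters and -0.058 at 1 kb or more. Of 268 summed ratios of single genes under the alternatives, 210 stayed within 0.1 of the reported value and 18 changed sign. No antagonist peak reached 1 kb. The cause of these moves was not tested. Bands by the deposited overall mean, added after seeing the data, gave 7 in place of 6 lower peaks and 0 higher at a level of 4 to 5, and 0 of either at 5 and above. No paired analysis was possible because each group is given by its mean, and leaving out single libraries could not be run for the same reason.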

Other observations

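Among genes of brain cell types, most listed peaks lay at genes of the neuronal and oligodendrocyte lists, with 29 and 24 peaks. Slc17a7, the vesicular glutamate transporter VGLUT1, had 13 peaks with sums of 259 control and 277 knockdown reads, a log2 ratio of 0.10. Rbfox3, which encodes the neuronal nuclear protein NeuN, had 13 peaks with sums of 150.2 and 126 reads, a ratio of -0.26. Olig2, a transcription factor of the oligodendrocyte lineage, had 9 peaks with sums of 255 and 268 reads, a ratio of 0.07. Per kb of covered DNA, the control levels of these genes were 25.7 reads at Slc17a7, 18.5 reads at Rbfox3 and 20.8 reads at Olig2. None of the 3 sums passed 2-fold in either direction, and no replicate error was available for them. Pdgfra, of the oligodendrocyte list, had 10 peaks and a ratio of -0.07. Other genes of the cell type lists passed 2-fold, each with 1 peak: Map2 was lower (-3.02), and Tubb3 (2.72) and Gfap (1.78) were higher.

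Within the pathway genes outside the 33, Amh, the anti-Müllerian hormone, had 2 peaks with sums of 10.5 control and 37.6 knockdown reads, a ratio of 1.83. The differences at these 2 peaks were 0.06 and 2.84, so the ratio rests on 1 of them. This gene was chosen after its values were seen.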
